A study of Sus scrofa with 12 samples.

Results

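Secreted Wnt antagonists are proteins that leave the cell and lower Wnt signalling from the outside. The 6 genes described here are *FRZB*, *SFRP4*, *SFRP1*, *SFRP2*, *DKK3* and *WIF1*, of 28212 genes in the NCBI annotation (Release 106) of the pig genome Sscrofa11.1. The rule that chose them is the gene name and uses no measured value. The level of each gene was taken from the assembled transcripts of each library that lie on the strand of the gene with at least 50% of their exonic bases in it. It is given in FPKM, fragments scaled to the length of the transcript and the size of the library, so that levels can be compared between genes. A transcript was assembled in at least 1 library for 5 of the 6 genes, against 12963 of all annotated genes.

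The RNA came from the *Longissimus dorsi* (the loin) of 12 castrated male Iberian pigs of a single closed purebred line, fattened outdoors on acorns and grass, with 1 library per animal. The animals had been selected for extreme breeding values of the shear force of cooked loin, the force needed to cut the meat. The 6 Tough animals had a shear force of 7.32 to 10.63 kg/cm2 and the 6 Tender animals of 2.18 to 3.43 kg/cm2. The labels give the same feeding for both groups and no treatment.

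Wnt proteins are secreted, lipid-bearing ligands that bind Frizzled receptors and the coreceptors LRP5 and LRP6. In the canonical branch this stops the destruction of beta-catenin, which then enters the nucleus and acts with TCF and LEF factors on target genes. Other branches act through planar cell polarity and calcium. The secreted frizzled-related proteins, encoded by *SFRP1*, *SFRP2*, *SFRP4* and *FRZB* (also called *SFRP3*), carry a cysteine-rich domain like that of the Frizzled receptors and bind Wnt proteins. WIF1 binds Wnt proteins through a domain of its own. DKK3 belongs to the Dickkopf family, whose best known members block the LRP coreceptors, and is the divergent member of it. In skeletal muscle, Wnt signals are known for their part in muscle development and regeneration, and in the behaviour of the fibroblast-like cells between the fibres.

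The assembled transcripts were compared with the annotated exons first, because the level of a gene rests on them. *SFRP4* (chr9:108404314-108414335, minus strand) had a single transcript with the annotated 6-exon structure in each of the 12 libraries. *SFRP2* (chr8:75337311-75345926, plus strand) had its annotated 3-exon structure in 11 libraries, and in Tough 3, where its level was lowest, a single-exon piece. *SFRP1* (chr17:10436414-10489773, minus strand) had its annotated 3-exon structure in all 12 libraries, and beside it 22 single-exon pieces. *WIF1* (chr5:29450442-29543913, minus strand) had no transcript in any library, also when transcripts without a strand were counted. In these files a gene can be listed at 0 although it is used: *GAPDH* was listed at 0 in 7 of the 12 libraries and *ALDOA* in 6. No more can be said of *WIF1* than that it is listed at 0.

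*FRZB* (chr15:88332856-88377275, minus strand) and *DKK3* (chr2:47385244-47444664, plus strand) were assembled in more than 1 form. The bases at the splice sites concerned, read from Sscrofa11.1, are shown to place these forms. Each window is given 5′ to 3′ on the strand of the gene, with the 2 intron bases next to the exon in capitals.

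FRZB, end of the annotated first exon (chr15:88377139-88377168): ctccttcgtgaggatttgggGTgggtttaa

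FRZB, start of the second exon (chr15:88376462-88376491): catctgattcatctgtgaAGtctgatgctt

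DKK3, end of the annotated first exon (chr2:47385733-47385762): cgcagcgcggtccatgctggGTaggtgagg

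DKK3, end of an unannotated first exon (chr2:47427603-47427632): tctgaccacccgtgaccttgGTaagtcact

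DKK3, start of the exon that follows it (chr2:47439420-47439449): ctccctcccgccccttccAGgagtgcatca

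The first intron of *FRZB*, which lies before the protein-coding part and is 677 bases long, was spliced out in a transcript of 4 libraries (Tough 6, Tender 1, Tender 3 and Tender 4). In Tender 4 the first exon of this transcript was only 1 base long. In 9 libraries the transcript ran without a break from the second exon into this intron, for 338 to 677 bases, and Tender 1 held both forms. All of these but that of Tough 4 had the introns of the other annotated *FRZB* transcript, which lacks the first intron. Where they end inside the intron, a start there and an unspliced intron cannot be told apart. In Tender 1 the spliced form carried 89.2% of the *FRZB* level. The form was therefore spliced in 1 of 6 Tough and 3 of 6 Tender libraries, and these numbers were not tested. Some transcripts also ran beyond the annotated ends of the gene. Since bases in the intron and beyond the ends add to the level, the *FRZB* level was up to 1.34 times that of the annotated exon bases alone.

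For *DKK3*, 10 libraries used the annotated first exon shown above and none used the other annotated first exon upstream of it. The full 8-exon transcript was assembled in 3 Tough and 5 Tender libraries. Tough 1 and Tough 4 held, beside it, a transcript that began with an unannotated exon of 41 and 65 bases inside the fourth intron of that 8-exon structure. The FPKM of this transcript was 0.348 in Tough 1 and 0.478 in Tough 4, against 0.527 and 0.691 for the full transcript of the same libraries. In Tough 2 and Tough 3 the gene was broken into 3 pieces, in Tough 6 a piece of the last exon was all that was assembled, and in Tender 5 *DKK3* was listed at 0.

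**Figure D1:**
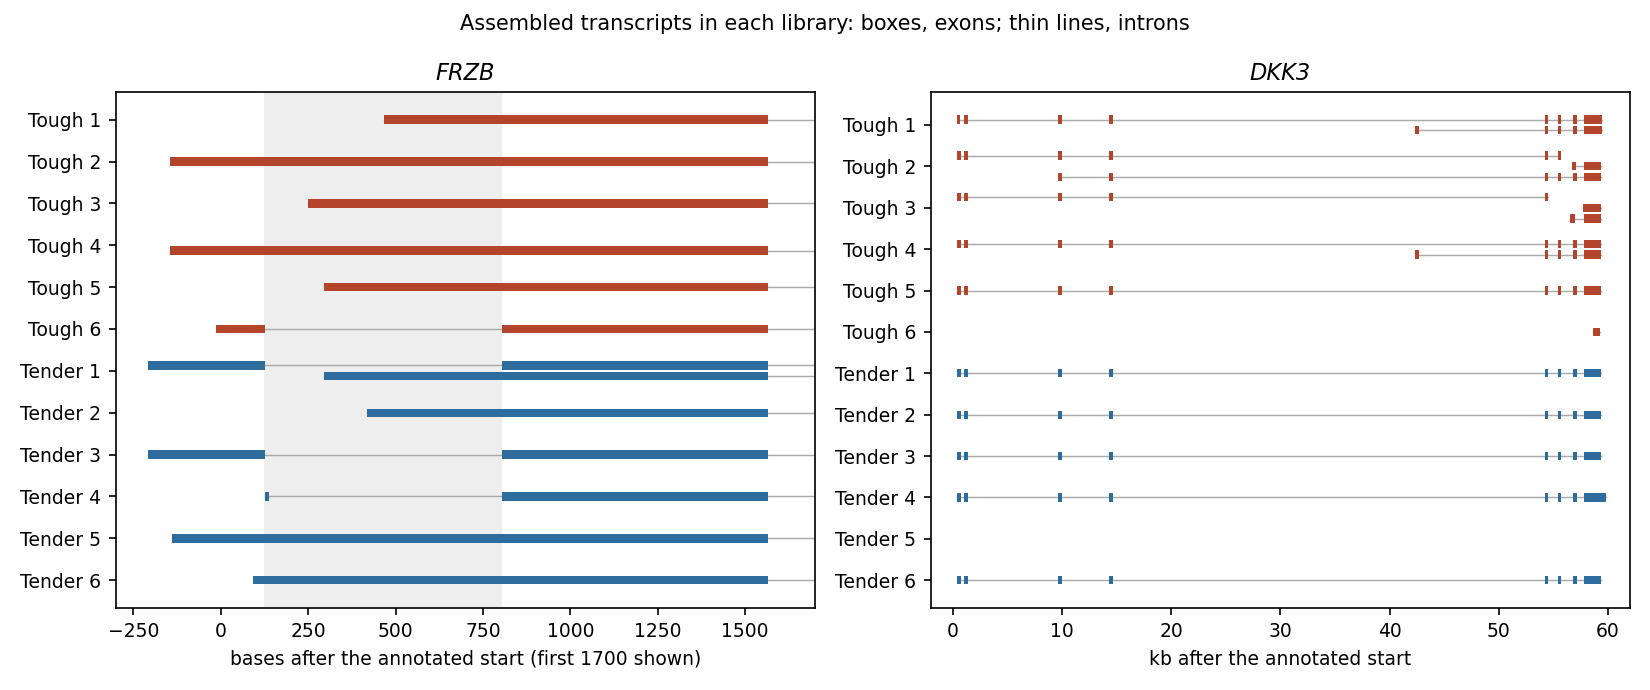
Assembled transcripts of *FRZB* (first 1700 bases, the first intron shaded) and *DKK3* (whole gene) in each of the 12 libraries, against the distance from the annotated start of the gene, with exons as boxes and introns as lines. Very short exons are drawn at a minimum width of 12 bases (*FRZB*) or 0.35 kb (*DKK3*). The *FRZB* transcripts of 9 libraries run into the shaded intron, and only Tough 1 and Tough 4 hold the *DKK3* transcript that starts near 42 kb.

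*FRZB* was the main transcript of the family in this muscle. It took 61.6% to 88.6% of the summed FPKM of the 6 genes in a library (median 75.1%), and its mean of 15.5 FPKM lay above 82.3% of the 9020 genes tested. It was followed by *SFRP4* (mean 2.05 FPKM), *SFRP2* (1.28 FPKM), *DKK3* (0.920 FPKM) and *SFRP1* (0.515 FPKM, above 0.732% of the genes tested). *FRZB* exceeded *SFRP4* in 12 of 12 libraries. *SFRP4* was above *SFRP2* in 10 libraries, with a mean log2 ratio of 0.55 ± 0.70 (SD, n = 12, exact sign-flip permutation test over the libraries, two-sided, adjusted p = 0.043 over the 4 neighbouring pairs). *SFRP2* was above *DKK3* in 7 libraries (adjusted p = 0.13, exact sign-flip permutation), and *DKK3* was above *SFRP1* in 9 (adjusted p = 0.28, exact sign-flip permutation), and the order within these last pairs was not resolved. Precision followed the level. The half-width of the confidence bounds that Cufflinks gave each transcript was 5.82% of the FPKM in the median *FRZB* transcript, 16.9% for *SFRP4*, 19.3% for *SFRP2*, 37.0% for *DKK3* and 45.3% for *SFRP1*.

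The comparison of Tough with Tender asks which genes differ with meat tenderness. The study also reports less intramuscular fat in its Tough animals than in its Tender animals. Differences that go with tenderness and with fat content therefore cannot be told apart here. On log2(FPKM + 0.5), limma tested 9020 genes with a mean above 0.5 FPKM, and all 5 members with a transcript passed this filter. To be called, a gene had to have a p no higher than 0.05, an adjusted p (Benjamini-Hochberg, over all genes tested) no higher than 0.10, and a 1.5-fold difference. None of the 5 members was called, and the share called among all genes was 0.0%. At an unadjusted p of at most 0.05, 1 of the 5 members passed, *SFRP4*, which was higher in Tough, against 222 genes or 2.46% of all, 0.698% higher in Tough and 1.76% higher in Tender. The members' log2 fold changes (Tough minus Tender) had a median of 0.0090, with 3 above 0 and 2 below. Over all genes tested the median was -0.040, with 3583 higher in Tough and 5437 higher in Tender by their estimate. The study itself listed *SFRP4* and *DKK3* among its differentially expressed genes and isoforms from these animals, so their directions here are not independent evidence. It used another test (Cuffdiff) and 1 more Tender animal, while limma called neither gene here.

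*SFRP4*, a frizzled-related protein known from bone and connective tissue, had the smallest p of the family. Its level was 3.00, 1.08, 1.99, 2.67, 5.69 and 1.70 FPKM in Tough 1 to 6, and 0.912, 1.65, 1.55, 1.89, 1.25 and 1.24 FPKM in Tender 1 to 6. Of the 6 Tough animals, 4 were above every Tender animal, and the groups overlapped because Tough 2 and Tough 6 lay within the Tender range. The means were 2.69 ± 1.62 FPKM in Tough and 1.41 ± 0.349 FPKM in Tender (SD, n = 6 each). The log2 fold change was 0.62 (95% interval 0.017 to 1.22, limma p = 0.045, adjusted p = 1.00), and the exact permutation test over the 924 splits of 6 and 6 animals gave a two-sided p of 0.054. Tough 5 weighed on the size: without it the log2 fold change was 0.40 (exact permutation p = 0.11), and without Tough 2 it was 0.80 (exact permutation p = 0.0043).

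Fibroblast and tendon markers were summed beside *SFRP4*. Among all 9020 genes tested, 3583 were higher in Tough and 5437 in Tender by their estimate. Of the 14 markers of fibroblasts and fibro-adipogenic cells, all tested, 13 were higher in Tough by their estimate and 0 passed an unadjusted p of 0.05. Their summed level was 129 to 384 FPKM in Tough and 129 to 279 FPKM in Tender (exact permutation p = 0.48, two-sided), and *DCN* and *GSN*, matrix and actin-binding proteins, were the most abundant of them. Of the 10 tendon and perimysium markers, 4 were tested and 4 were higher in Tough, 1 of them (*COL14A1*, a fibril-associated collagen, exact permutation p = 0.052) within limma's unadjusted 0.05. Their sum was 10.7 to 45.7 FPKM in Tough and 10.6 to 35.7 FPKM in Tender, *FMOD* and *THBS4* were among the most abundant, and the defining tendon factors *SCX* and *MKX* were listed at 0 in all libraries. Several genes of these lists, among them *COL1A2* and *COL14A1*, had been reported by the study as higher in Tough from these animals. The directions of these genes here are therefore not independent evidence. The part of these cells in the *SFRP4* values was not tested. In a whole muscle sample, more cells of a type and more RNA per cell cannot be told apart.

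*FRZB*, known from cartilage and from developing muscle, leaned the other way. Its level was 16.2, 15.8, 9.49, 10.8, 13.7 and 9.37 FPKM in Tough 1 to 6 and 17.8, 8.83, 17.5, 31.0, 17.6 and 17.3 FPKM in Tender 1 to 6. All Tender animals but Tender 2 were above every Tough animal, and Tender 2 was the lowest of the 12. This separation rests in part on bases outside the annotated exons, in the first intron and beyond the annotated ends of the gene. Counted on annotated exon bases alone, Tender 5 (13.2 FPKM) and Tender 6 (13.4 FPKM) were below Tough 1 (14.2 FPKM). The log2 fold change was then -0.50 (exact permutation p = 0.10). The means were 12.6 ± 3.09 FPKM in Tough and 18.4 ± 7.13 FPKM in Tender (SD, n = 6 each), with a log2 fold change of -0.48 (95% interval -1.03 to 0.072, limma adjusted p = 1.00). The limma p before adjustment and the exact permutation p were 0.083 and 0.080, two-sided. By these tests the difference was not larger than the spread between animals. Without Tender 2 the log2 fold change was -0.66 (exact permutation p = 0.0065), and without Tender 4, the highest animal, it was -0.31 (exact permutation p = 0.19).

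Other genes also differed in these animals. In Tender 2 the 8 interferon response genes summed to 373 FPKM, against 13.5 to 33.3 FPKM in the other 11 libraries, with *GBP1* at 170 FPKM, and the 8 macrophage markers summed to 69.8 FPKM against 9.62 to 33.5 FPKM. In Tender 4 the 8 adipocyte markers reached 131 FPKM, against 64.1 to 120 FPKM elsewhere, through *LPL* at 66.2 FPKM. Without *LPL* they summed to 64.5 FPKM, inside the 48.9 to 99.5 FPKM of the other libraries. *ADIPOQ* was listed at 0 in all libraries. The 18 Wnt receptors and coreceptors reached 46.4 FPKM in Tender 4 against 23.6 to 34.2 FPKM elsewhere, with *FZD4* at 16.9 FPKM in Tender 4. Their part in the *FRZB* values was not tested.

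*DKK3* showed the widest spread over animals. It was 0.766, 0.672, 0.645, 1.01, 0.428 and 0.0968 FPKM in Tough 1 to 6 and 0.617, 0.435, 3.57, 0.542, 0 and 2.26 FPKM in Tender 1 to 6. Tender 3 and Tender 6 were above every Tough animal, and Tender 1, Tender 2 and Tender 4 lay among the Tough animals. Tender 5 was listed at 0, which may not be a level. The medians were close, 0.658 FPKM in Tough and 0.580 FPKM in Tender. The log2 fold change was -0.35 (95% interval -1.33 to 0.63, exact permutation p = 0.50), and it was -0.033 without Tender 3 and -0.64 without Tender 5.

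*SFRP1* and *SFRP2*, the closest relatives within the family, did not separate the groups. *SFRP1* was 0.568, 0.370, 0.409, 0.750, 0.718 and 0.447 FPKM in Tough 1 to 6 and 0.447, 0.302, 0.695, 0.389, 0.511 and 0.575 FPKM in Tender 1 to 6. Its log2 fold change was 0.079 with a 95% interval of -0.23 to 0.38 (exact permutation p = 0.53), the narrowest interval of the family on this scale, on which a pseudocount of 0.5 shrinks the change of so low a gene. *SFRP2* was 1.86, 0.626, 0.244, 1.92, 1.72 and 1.10 FPKM in Tough 1 to 6 and 0.777, 0.408, 3.05, 2.16, 0.507 and 0.976 FPKM in Tender 1 to 6. It varied 12.5-fold over the animals, with high and low animals in both groups. The log2 fold change of *SFRP2* was 0.0090 with a 95% interval of -0.84 to 0.86 (exact permutation p = 0.99), so that changes of nearly 2-fold either way lay within the interval.

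**Figure D2:**
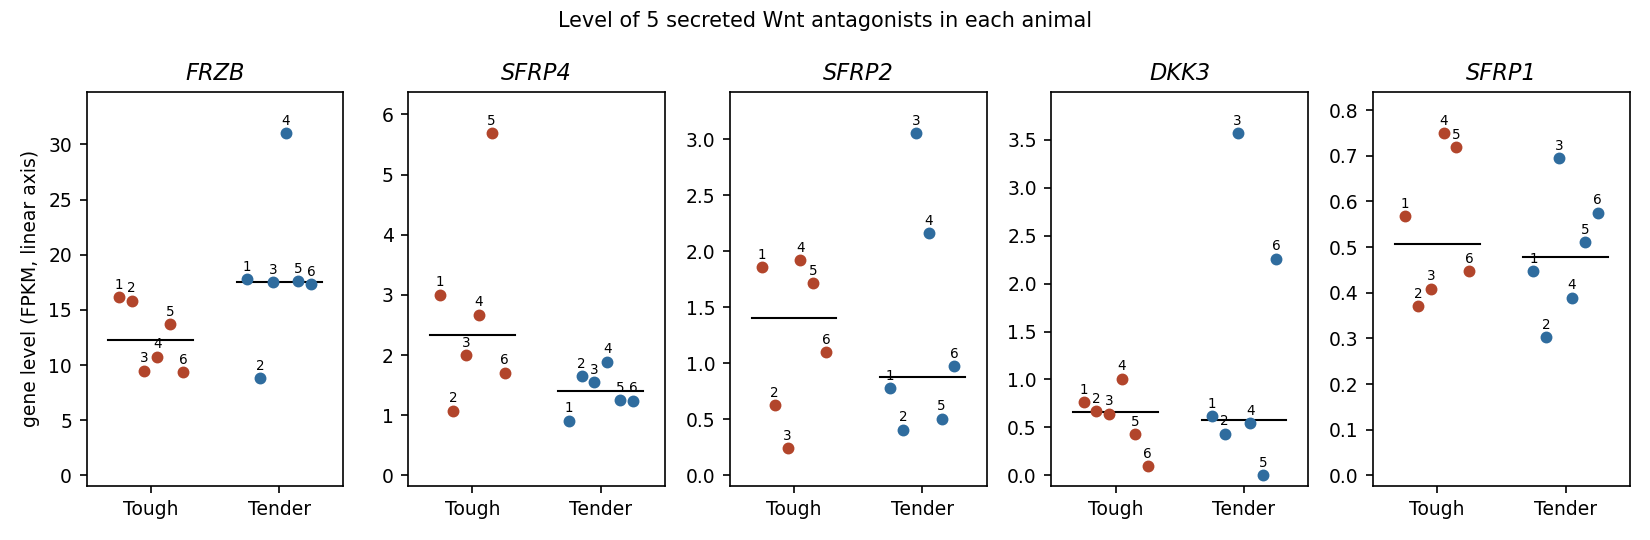
Level in FPKM (linear axes, each gene on its own scale) of the 5 members with a transcript in each animal, with the animal number beside each point and the group median as a line. *SFRP4* sits higher in 4 Tough animals and *FRZB* in all Tender animals but Tender 2, while *DKK3* is set apart by Tender 3 and Tender 6. The *FRZB* level shown includes bases in its first intron and beyond the annotated ends of the gene.

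**Figure D3:**
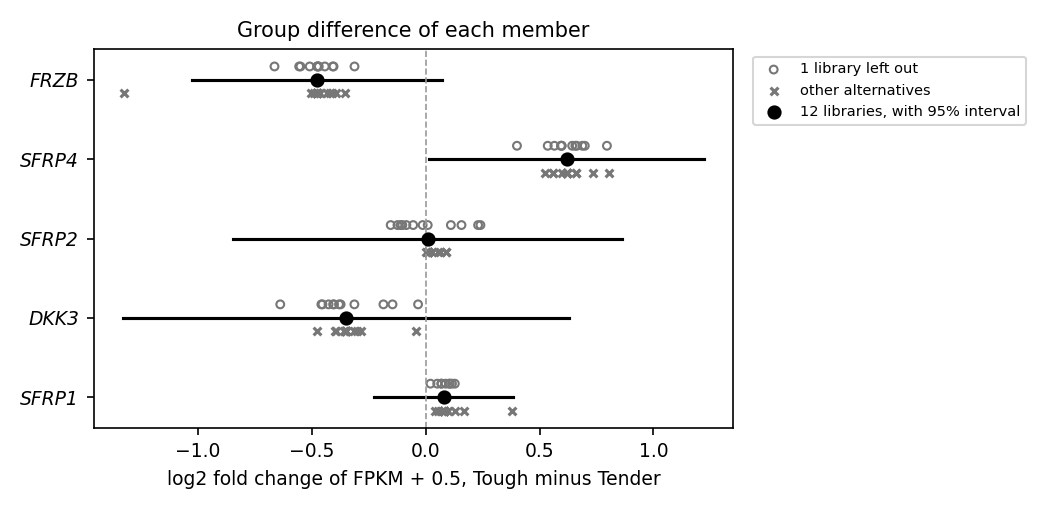
Log2 fold change of FPKM + 0.5 (Tough minus Tender) of each member with its 95% interval from limma (black), each estimate with 1 library left out (open circles) and each other alternative (crosses). The interval of *SFRP4* starts just above 0 at 0.017, and those of the other 4 members cross 0.

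The members were also compared with each other over the 12 animals. None of the 10 pairs held after adjustment. The pair of smallest p was *SFRP1* with *SFRP2* (Pearson r = 0.66, permutation p = 0.021, adjusted p = 0.21, Spearman rho = 0.56, permutation p = 0.062, adjusted p = 0.40, n = 12). Within the groups r was 0.83 in Tough (exact permutation p = 0.042) and 0.54 in Tender (exact permutation p = 0.28), and it was 0.61 over the animals left when the 2 farthest from the median of *SFRP1* were taken out. *FRZB* and *SFRP4* had an r of -0.20 (permutation p = 0.54, adjusted p = 0.67).

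Within a group, the members were set against the shear force of the animals, in 10 relations. Only *DKK3* in the Tough group passed an adjusted p of 0.05. Its level followed shear force with Pearson r = 0.92 (exact permutation p = 0.0042, adjusted p = 0.042, n = 6), and Spearman rho was 0.94 (exact permutation p = 0.017, adjusted p = 0.17). Tough 6, with the lowest shear force (7.32 kg/cm2), had the lowest *DKK3* level, and Tough 4 and Tough 1, with the highest (10.47 and 10.63 kg/cm2), the highest. Without the 2 animals farthest from the median shear force r was 0.98. With any 1 Tough animal left out, r stayed between 0.89 and 0.97 and the adjusted p rose to between 0.15 and 0.17, where 5 animals allow an exact permutation p no lower than 0.0083, or 0.083 for a lone relation after adjustment over 10. The call was also lost with median-of-ratios scaling (r = 0.90, exact permutation, adjusted p = 0.097), quantile normalization (r = 0.90, adjusted p = 0.12, exact permutation), the 90% limit (r = 0.90, adjusted p = 0.15, exact permutation), the highest transcript (r = 0.72, adjusted p = 0.41, exact permutation) and the plain sum of transcripts (r = 0.71, adjusted p = 0.48, exact permutation). In Tender animals r was 0.53 (exact permutation p = 0.28, adjusted p = 0.52). The *DKK3* values of the Tough group rest on few reads: the 8-exon transcript had a mean coverage of 3.75 to 5.53 in the 3 Tough libraries that held it, and the other 3 held pieces only. *SFRP1* in Tender had the next smallest p (r = 0.86, exact permutation p = 0.029, adjusted p = 0.15), and this rested on 2 animals, since without the 2 farthest from the median shear force r was 0.13.

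**Figure D4:**
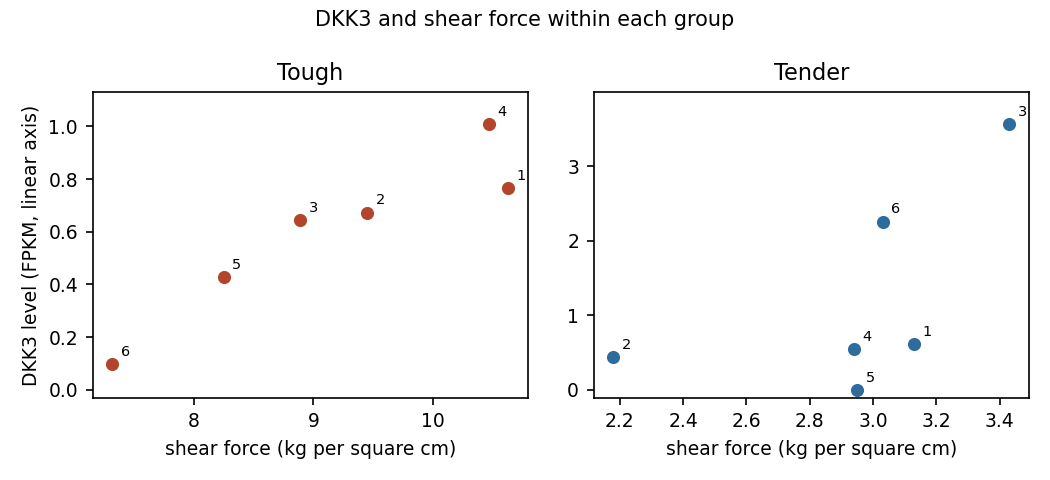
Level of *DKK3* in FPKM against the shear force of the animal in kg per square cm, with 1 point per animal and its number, for the Tough group (left) and the Tender group (right) on their own axes. In Tough the points climb from Tough 6 to Tough 4 and Tough 1 (r = 0.92, a call lost under 5 other ways of processing), and in Tender the 2 highest points are Tender 6 and Tender 3 (r = 0.53).

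The other genes of the Wnt pathway gave little that separated the groups. Of 116 further gene symbols of the pathway, not all of them annotated, 76 had a transcript and 56 were tested. Of those tested, 26 were higher in Tough by their estimate and 30 in Tender. At an unadjusted p of at most 0.05, 1 was higher in Tough and 1 in Tender, and none was called. Their median log2 fold change was -0.020, near that of all genes tested.

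Among the ligands and the proteins that release them, 7 of 21 had a transcript and 5 were tested. *WNT5B*, a ligand of the non-canonical branches, was 2.19 ± 1.01 FPKM in Tough and 1.05 ± 0.421 FPKM in Tender (SD, n = 6 each). This gave a log2 fold change of 0.74 ± 0.28 (SE, limma p = 0.022, adjusted p = 1.00), with an exact permutation p of 0.041. Tough 1, 4, 5 and 6 were above every Tender animal, at 2.43, 3.48, 2.72 and 2.55 FPKM, and Tough 2 and Tough 3 were within the Tender range. *WNT9A* (log2 fold change 0.23, exact permutation p = 0.084) and *WNT11* (-0.15, exact permutation p = 0.36), further ligands, did not pass.

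Of the 12 other secreted inhibitors, 4 had a transcript and 2 were tested. *SFRP5*, the sister gene of *SFRP1* and *SFRP2*, was 2.31 ± 1.37 FPKM in Tough and 2.24 ± 0.812 FPKM in Tender (exact permutation p = 0.94), a level like that of *SFRP4*. *DKK2*, a Dickkopf protein that binds the LRP coreceptors, was 0.661 ± 0.272 and 0.577 ± 0.586 FPKM (exact permutation p = 0.48). Tender 4 held 1.74 FPKM, and without it the log2 fold change was 0.45 in place of 0.21. The Dickkopf genes *DKK1* and *DKK4* and the bone inhibitor *SOST* were listed at 0 in all libraries.

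On the receiving side, 9 of 18 receptors and coreceptors were tested and 0 passed, the smallest p being those of the receptor *FZD7* (log2 fold change 0.30, exact permutation p = 0.056), the Dickkopf receptor *KREMEN1* (0.27, exact permutation p = 0.076) and the receptor *FZD1* (-0.19, exact permutation p = 0.18). The coreceptors *LRP5* (-0.16) and *LRP6* (0.032) were among those that did not pass. Of 9 R-spondins and genes of receptor turnover, which set how much receptor stays at the surface, 2 were tested, *RNF43* (0.25, exact permutation p = 0.13) and *LGR4* (0.00029, exact permutation p = 1.00), and the 4 R-spondins themselves were listed at 0.

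Inside the cell, 20 of 23 genes of the beta-catenin pathway were tested. *AXIN1*, the scaffold of the complex that destroys beta-catenin, was lower in Tough, at 2.16 ± 0.532 FPKM against 3.08 ± 0.739 FPKM in Tender (SD, n = 6 each, log2 fold change -0.42 ± 0.17 SE, limma p = 0.027, adjusted p = 1.00, exact permutation p = 0.035). Its log2 fold change was -0.080 with the highest transcript and -1.42 with transcripts that have 90% of their bases in the gene. The coactivator *BCL9L* (0.36, exact permutation p = 0.089) and the kinase *GSK3A* (-0.22, exact permutation p = 0.16) followed, and *CTNNB1*, which encodes beta-catenin, had a log2 fold change of 0.057. Of 17 annotated direct target genes 6 were tested and 0 passed. *RNF43*, which is also a target, *MYC* (-0.20, exact permutation p = 0.45) and *CCND1* (0.13, exact permutation p = 0.44) had the smallest p, and the feedback target *AXIN2* had a log2 fold change of 0.12 (exact permutation p = 0.42). In the planar polarity and calcium branch 13 of 21 were tested and 0 passed, led by the calcium-dependent factors *NFATC1* (-0.43, exact permutation p = 0.12) and *NFATC3* (0.34, exact permutation p = 0.19) and the kinase *MAPK9* (-0.46, exact permutation p = 0.20).

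**Figure D5:**
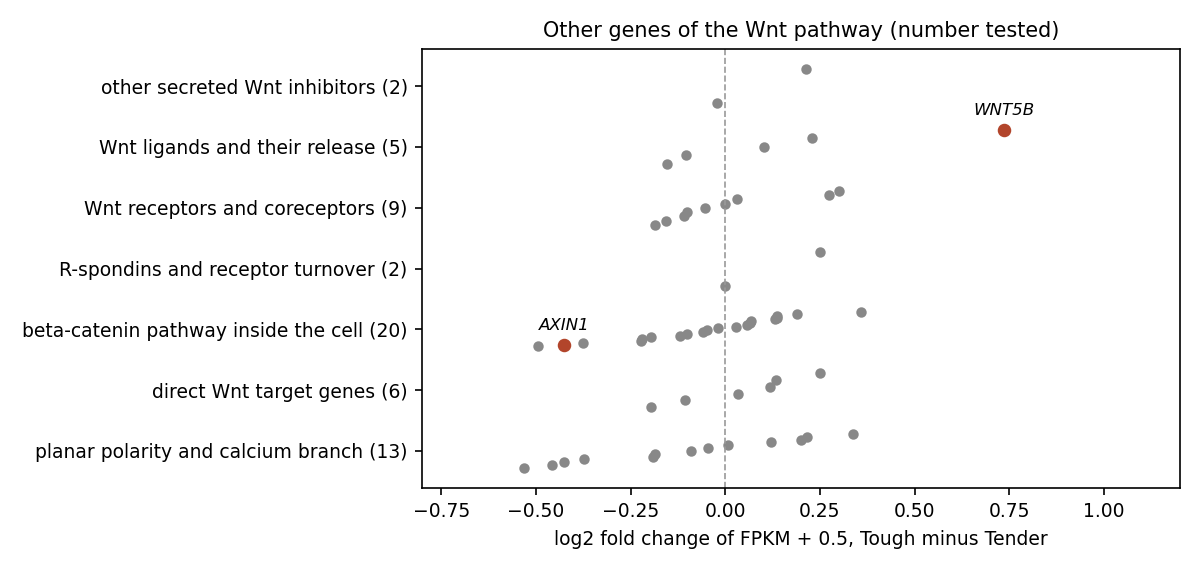
Log2 fold change of FPKM + 0.5 (Tough minus Tender) of each tested gene of 7 Wnt pathway lists, 1 point per gene, with the number tested in brackets and genes at an unadjusted p of at most 0.05 in red. *WNT5B* (0.74) and *AXIN1* (-0.42) are the only red points, and most others lie close to 0.

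The genes whose level over the 12 libraries was most like that of each member were found among 8681 tested genes with a symbol. These are descriptions, since so many genes were compared over libraries that share their depth and composition. For *SFRP4* they were *CDO1* (Pearson r = 0.87), *ADGRE5* (0.86) and the collagen gene *COL1A2* (0.84). *SFRP2* was most like *REEP6* (0.89), the matrix gene *CCDC80* (0.88) and the matrix gene *FBLN7* (0.88). *FRZB* was most like *UACA* (0.89) and the pyrophosphate transporter *ANKH* (0.89). For *DKK3* they were *CREB3* (0.84), *TOLLIP* (0.83) and *ABLIM1* (0.83), and for *SFRP1* they were *PGAP2* (0.91), *C1QTNF2* (0.90) and *S100A1* (0.86). Spearman's rho of the genes named here lay between 0.65 and 0.92.

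The promoters were searched for the TCF and LEF motif, since Wnt antagonists are known to include targets of the pathway. The 250 bases before the start of each member were read from Sscrofa11.1, for *DKK3* before the annotated first exon that the libraries used. For *FRZB* the annotated start was kept, although some assembled transcripts began inside that window and others inside the first intron. The core searched was CTTTGNN, on both strands, with A or T at each of the last 2 letters. None of the 6 windows held a match. Of 19556 protein-coding genes 11.2% had 1 or more in the window of that length, and at such a share 0 of 6 says nothing particular about the members. The window of *SFRP4* (chr9:108414336-108414585, minus strand), the member of smallest p, is shown 5′ to 3′ with no capitals, as it holds no match.

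SFRP4, 250 bases before the start: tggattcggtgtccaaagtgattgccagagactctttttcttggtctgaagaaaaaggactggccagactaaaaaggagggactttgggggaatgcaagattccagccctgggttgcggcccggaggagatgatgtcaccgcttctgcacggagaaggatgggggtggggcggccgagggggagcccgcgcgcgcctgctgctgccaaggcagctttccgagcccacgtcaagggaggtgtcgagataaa

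The tissue was checked against markers of the cells it can hold. Of all 9020 genes tested, 5437 were higher in Tender and 3583 in Tough by their estimate. The counts of markers by direction are to be read beside that split. Of 14 genes of skeletal muscle fibres 13 had a transcript, and *MYLPF* (5615 to 14432 FPKM) and *TNNI2* were the most abundant, although *TNNI2* was listed at 0 in 4 libraries. *CKM*, another of these genes, was listed at 0 in 7 libraries. Such zeros were counted as levels in the estimates. Of the 13 fibre genes tested 7 were higher in Tough and 6 in Tender by their estimate, 1 of them (*MYL2*, the slow fibre light chain, higher in Tender) within limma's unadjusted 0.05. For endothelium, 7 of 7 tested markers were higher in Tender by their estimate, with 0 at an unadjusted p of 0.05, a summed level of 18.9 to 40.7 FPKM in Tough and 29.7 to 46.8 FPKM in Tender, and *PECAM1* and *VWF* as the most abundant. For adipocytes, 4 of 6 tested markers were higher in Tender, 1 of them (*LPL*, exact permutation p = 0.080) within limma's unadjusted 0.05, and *PLIN4* was also abundant. Of 7 tested macrophage markers 6 were higher in Tender, 1 of them (*CD14*, exact permutation p = 0.028) within limma's unadjusted 0.05, with *C1QA* and *C1QB* as the most abundant. Smooth muscle (*ACTA2*, *CNN1*), satellite cell (*PAX7*, *CDH15*) and Schwann cell (*PMP22*) markers had 0 genes at an unadjusted p of 0.05. Of the defining markers, *CLDN5* (endothelium) and *RGS5* (pericytes) were listed at 0 in all libraries.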

How the data were processed

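Loin RNA of 6 Tough and 6 Tender Iberian pigs was analysed from 1 library per animal. The groups came from the sample labels. The authors trimmed paired reads, mapped them to Sscrofa11.1 with TopHat2 2.1.0 and assembled the transcripts of every animal separately (Cufflinks 2.2.1). The deposited files give, for each transcript, its exons, its level in FPKM with confidence bounds, and an isoform score that was not used. They hold no read counts, so the depth behind a level is known only as the coverage that Cufflinks gives. The libraries held 25798 to 31353 transcripts. Those on scaffolds were left out, and of the rest 63.9% to 74.8% were assigned to a gene.

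To obtain gene levels, FPKM times transcript length was added up over the assigned transcripts and divided by the exon length of the gene. After a filter at a mean of 0.5 FPKM, log2(FPKM + 0.5) was compared, without rescaling between libraries, by limma 3.58.1 in R 4.3.3 (trend, group as the only factor, Benjamini-Hochberg adjustment over all genes tested). P-values measure the spread between animals, and sequencing lane and slaughter batch are not given per animal in the sources used here. Single values were compared by exact permutation tests, and relations over 12 libraries by 100000 permutations. On simulated data of 9020 genes the test found 80% of the genes given a log2 change of 1 and 88% of the genes given a log2 change of 2, and 19 unchanged genes were called. The simulated noise was normal and drawn independently for each gene and library, which real libraries are not. These shares therefore do not say how often such changes would be found in the real data.

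The members and the gene lists were chosen with earlier results of these data known. Named are all members, the 3 tested genes of smallest p in each pathway list, the 3 genes most like each member and the 2 most abundant genes of each cell type list. *LRP5*, *LRP6*, *CTNNB1*, *AXIN2*, *COL14A1*, *LPL*, *CD14* and *MYL2*, the genes listed at 0 and the genes used to check listing at 0 were named after their values were seen. A few genes that this rule names are not reported here. Sequences were read from Sscrofa11.1 with pysam 0.24.0, and Python 3.11.15 (scipy 1.17.1, numpy 2.4.6, pandas 2.3.3, matplotlib 3.10.9) served for the rest. The alternatives changed the pseudocount, filter, scaling, gene measure, strand, test, threshold, block and libraries.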

Additional observations from a re-analysis of the deposited data

How the results depend on the processing

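No member was called under any alternative but the threshold of an unadjusted p of 0.05, which gave 1 member and 222 of all genes. The directions of *SFRP4* (log2 fold change 0.40 to 0.81), *FRZB* (-1.33 to -0.31), *DKK3* (-0.64 to -0.033) and *SFRP1* (0.021 to 0.38) held under every alternative that could be computed. The -1.33 of *FRZB* came from transcripts with 90% of their bases in the gene, a limit that drops those running into the first intron. *SFRP1* fell below the filter at a minimum mean of 1 FPKM and without Tough 4, Tough 5 or Tender 3, and *DKK3* at that minimum. *SFRP2* ranged from -0.15 to 0.24 with 1 library left out. With 1 library left out, *SFRP4* ranged from 0.40 to 0.80, *FRZB* from -0.66 to -0.31 and *DKK3* from -0.64 to -0.033.

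The animal numbers in the labels did not pair the animals (correlations of the deviations of same-numbered animals from -0.22 to 0.022). With the animal number as a replicate block, 171 genes in place of 222 passed an unadjusted p of 0.05, the smallest adjusted p was 1.00, and the pathway count was 1.

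The count of pathway genes at an unadjusted p of 0.05, 2 in all, was 1 with the highest transcript, 4 with no minimum mean and 8 with array weights, and from 1 to 7 with 1 library left out, highest without Tender 4. *AXIN1* kept its sign but had a log2 fold change of -0.080 with the highest transcript and -1.42 with the 90% limit. By the plain sum of transcripts *CCND1* (-0.081), *DKK2* (-0.15), *LGR4* (-0.19), *WNT9A* (-0.057) and *WNT11* (0.020) changed sign, and by the highest transcript *DKK2* (-0.0049) and *MAPK9* (0.049) did. *LGR4* was -0.0056 with a pseudocount of 1 and -0.10 to 0.16 with 1 library left out. *SFRP5* was 0.017 with array weights, 0.019 with median-of-ratios scaling, 0.0020 per exon base, 0.030 with quantile normalization and -0.24 to 0.11 with 1 library left out. The cause was not tested.

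The pair of *SFRP1* and *SFRP2* passed an adjusted p of 0.05, as 1 pair, with quantile normalization and without Tender 4 (0 to 1 pairs with 1 library left out). The relation of *DKK3* with shear force in Tough was lost, leaving 0 relations, with median-of-ratios scaling, quantile normalization and the 90% limit (r = 0.90 in each), the highest transcript (r = 0.72) and the plain sum (r = 0.71). It ranged from 0 to 2 relations with 1 library left out, *SFRP1* in Tender being added without Tender 1. Over the alternatives the median log2 fold change of all genes tested lay between -0.068 and 0.0071. The split of genes at an unadjusted p of 0.05 moved from 63 higher in Tough and 159 in Tender to 134 and 143 with median-of-ratios scaling and to 143 and 147 with quantile normalization. With 1 library left out, 151 to 399 genes passed it.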
